A study of Homo sapiens with 8 samples.

Results

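CCDC177, LGALS2, OMG, PABPN1L, TMEM72 and HTR1B are 6 protein-coding genes that a human beta cell line held at a low level in culture medium and that were almost not read after exposure to inflammatory cytokines. They are 6 of the 16525 genes listed in the deposited expression table, and they were taken from the study's own list of its largest falls among coding genes. They were chosen by their fold change in these same libraries, so their fall is described here with its size and its error and is not tested. The RNA came from EndoC-βH5 cells, 1 human beta cell line of fetal pancreatic origin that had been immortalised with SV40LT and hTERT transgenes, from which both transgenes were later removed. Control cells received no cytokine, and cytokine cells received IL-1β, IFNγ and TNFα together for 48 h. Each group had 4 libraries, and nothing in the labels says that they came from separate cultures, so p-values measure the spread between these libraries, which may be technical. In the column names each control shares its first part with a cytokine library, and the resulting pairs are called A to D.

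Islet beta cells in autoimmune diabetes are exposed to cytokines from infiltrating immune cells, which act through NF-κB and STAT transcription factors, and cytokine-exposed beta cells are known to lose part of their specialised expression programme. The 6 genes belong to no common pathway. HTR1B encodes a serotonin receptor coupled to inhibitory Gi proteins, and beta cells can make and release serotonin. LGALS2 encodes galectin-2, a lectin that binds beta-galactosides. OMG encodes oligodendrocyte myelin glycoprotein, a lipid-anchored surface protein that binds the Nogo receptor on neurons, and PABPN1L encodes a relative of the nuclear poly(A)-binding protein PABPN1. CCDC177 encodes a coiled-coil protein and TMEM72 a membrane protein.

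The values were in CPM, that is the reads of a gene scaled to a common library total. Totals behind the CPM ran from 46767972 to 51145634 reads in the control libraries and from 46821778 to 49770531 in the cytokine libraries, so that 1 read was worth between 0.0196 and 0.0214 CPM. All values were whole numbers of reads within a tolerance of 0.01 read, and reads are therefore given beside CPM. A count of 0 allows up to 3 reads, or 0.0587 to 0.0641 CPM. Intervals and floors cover counting error only. In bulk RNA, fewer cells of a type and less RNA per cell cannot be told apart. All 8 listed beta cell markers were present, INS at 1158 to 2905 CPM in the controls. None of the 3 endothelial and none of the 3 immune markers was listed. All 4 alpha and all 4 delta cell markers were listed too, GCG at 19.8 to 222 and SST at 355 to 2143 CPM in the controls. PPY, GHRL, 2 of 4 ductal, 1 of 4 acinar and 2 of 3 mesenchymal markers were also listed. The ductal marker KRT19 was at 79.9 to 159 CPM in the controls. The markers thus do not settle the cell composition.

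CCDC177 (ENSG00000267909, GRCh38 chr14:69569816-69574837, minus strand) had the fewest reads over the control libraries. Control libraries A to D held 30, 28, 26 and 38 reads, or 0.641, 0.593, 0.518 and 0.743 CPM. The cytokine libraries held 0, 1, 1 and 2 reads, and the 0 of pair A allows up to 13.0% of its control as the upper exact limit. No cytokine library came near a control: the lowest control CPM was 12.9 times the highest cytokine CPM. The mean went from 0.624 ± 0.0945 CPM (SD, n = 4) to 0.0204 ± 0.0164 CPM, and over the summed reads, 122 against 4, the rate was 30.2-fold lower with a 95% exact interval of 11.5 to 112. The 4 control counts varied less than counting error alone gives, by 0.722 times.

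HTR1B (ENSG00000135312, chr6:77461753-77463773, minus strand), the Gi-coupled serotonin receptor, lies in 1 annotated exon. Its control counts were 39, 29, 52 and 27 reads, or 0.834, 0.614, 1.04 and 0.528 CPM. Its cytokine counts were 2, 3, 2 and 4 reads. The groups did not overlap, and no cytokine library was at 0, which held for HTR1B, OMG and PABPN1L. The mean fell from 0.753 ± 0.228 to 0.0568 ± 0.0190 CPM (SD, n = 4 each), and the summed rate was 13.2-fold lower (95% exact interval 7.17 to 27.1).

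LGALS2 (ENSG00000100079, chr22:37570246-37582616, minus strand), the galectin, was at 0.748, 1.50, 0.776 and 0.763 CPM in controls A to D, from 35, 71, 39 and 39 reads. Cytokine libraries held 0, 5, 3 and 2 reads. Control B stood far above the other 3 controls, which lay close together, and cytokine B was likewise the highest of its group. The mean was 0.948 ± 0.370 CPM in controls and 0.0518 ± 0.0444 CPM with cytokines (SD, n = 4 each), and the summed rate was 18.2-fold lower (95% exact interval 9.67 to 38.6). In pair A, where the cytokine library was at 0, the upper exact limit was 11.1% of the control.

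OMG (ENSG00000126861, chr17:31272013-31297539, minus strand), the Nogo receptor ligand, had control counts of 38, 66, 33 and 52 reads and cytokine counts of 3, 3, 1 and 4. In CPM the controls were at 0.813, 1.40, 0.657 and 1.02. As for LGALS2, control B was the highest, and the spread of the controls exceeded counting error 5.10-fold in variance for OMG and 6.95-fold for LGALS2. The mean fell from 0.971 ± 0.320 to 0.0571 ± 0.0258 CPM (SD, n = 4 each), a summed rate 17.0-fold lower (95% exact interval 9.28 to 34.6).

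PABPN1L (ENSG00000205022, chr16:88863333-88866660, minus strand), the poly(A)-binding protein relative, was at 0.791, 0.762, 1.09 and 1.15 CPM in controls, from 37, 36, 55 and 59 reads. Its cytokine counts were 5, 3, 2 and 1. Pairs C and D thus had the higher controls and the lower cytokine counts. The mean fell from 0.950 ± 0.203 to 0.0577 ± 0.0371 CPM (SD, n = 4 each), 16.8-fold in the summed rate (95% exact interval 9.18 to 34.3).

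TMEM72 (ENSG00000187783, chr10:44911200-44937002, plus strand), the membrane protein gene, was at 1.05, 0.698, 1.09 and 1.02 CPM in controls, from 49, 33, 55 and 52 reads. Cytokine libraries held 6, 0, 1 and 5 reads. Its cytokine counts were the most uneven of the 6 genes, with a variance 2.92 times that of counting error, and cytokine A and D lay above the floor. The mean fell from 0.964 ± 0.180 to 0.0621 ± 0.0616 CPM (SD, n = 4 each), 15.6-fold in the summed rate (95% exact interval 8.71 to 30.7). In pair B, where the cytokine library was at 0, the upper exact limit was 11.9% of the control.

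**Figure D1:**
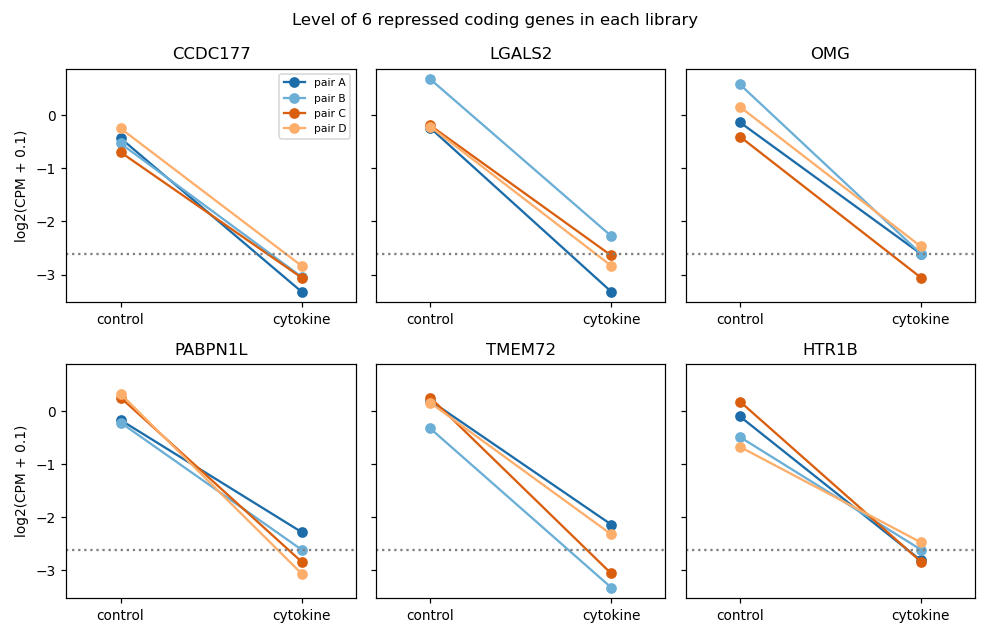
Level of each gene in the 8 libraries as log2(CPM + 0.1), with a line joining the control and the cytokine library of a pair and the dotted line at the highest floor of 3 reads (0.0641 CPM). Every line runs downward, and 18 of the 24 cytokine values rest on 3 reads or fewer.

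Together the 6 genes had 1018 reads in the 4 control libraries and 59 in the 4 cytokine libraries. Of the 24 cytokine values, 3 were 0 and the highest was 6 reads. All 6 genes had every cytokine library below every control library, which held for 21.9% of all listed genes, and all 6 would be called lower, as 17.5% of all listed genes were; the choice of the genes fixed both counts. Within pairs, the rate left with cytokines was at most 15.2% of the control, reached by HTR1B in pair D, where the upper limit was 43.7%. The lowest value above 0 was 1.74%, for PABPN1L in pair D. The intervals of the 6 summed folds overlapped, so the order of the genes by fold is not resolved at this depth.

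**Figure D2:**
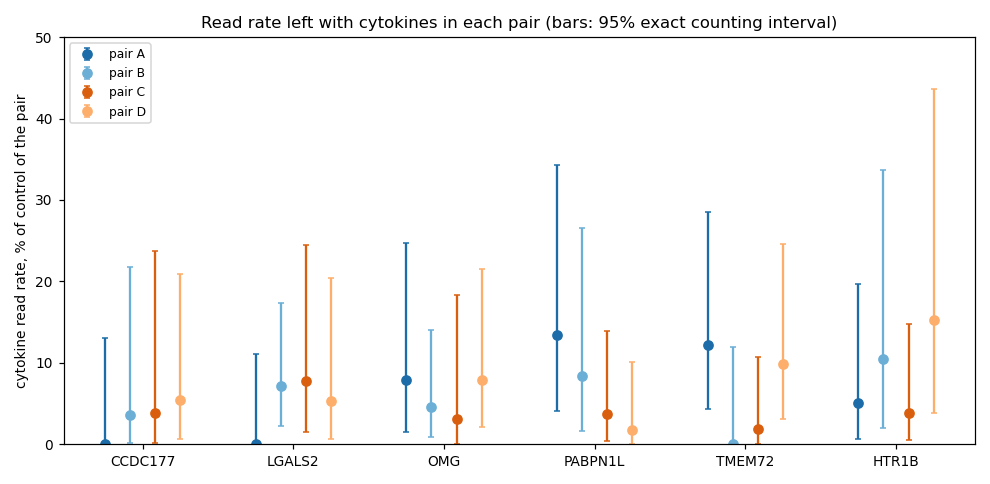
Read rate in each cytokine library as a percent of the control library of its pair, for 4 pairs and 6 genes, with 95% exact counting intervals. All 24 points lie at or below 15.2%, and all upper limits at or below 43.7%.

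Levels between genes were compared per length, as CPM per kilobase of merged exons in the control libraries. LGALS2 was the highest at 1.14 ± 0.447 CPM per kb (SD, n = 4), followed by PABPN1L at 0.723 ± 0.154. HTR1B followed at 0.372 ± 0.113, TMEM72 at 0.305 ± 0.0571, OMG at 0.253 ± 0.0834 and CCDC177 at 0.151 ± 0.0229 CPM per kb. The ranges of LGALS2 and PABPN1L, and of PABPN1L and HTR1B, did not overlap, whereas HTR1B, TMEM72, OMG and CCDC177 overlapped each with the next in this order.

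The 6 genes were listed through their control libraries. The authors kept a gene at 0.5 CPM in at least 4 samples, and each of the 6 passed 0.5 CPM in all 4 controls and in 0 of the 4 cytokine libraries. In the 8 libraries used, 111 genes were listed in this way, of which 57 were coding, and a gene of this kind had to differ between the groups. Of the 330 coding genes whose control mean lay in the same range, 0.624 to 0.971 CPM, 44 were called lower and 44 higher, with a median log2 fold change of -0.21.

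The size of the fall depended on the scale. On log2(CPM + 0.1), the scale of the limma fit, log2 fold changes were -2.59 (SE 0.30) for CCDC177, -2.78 (SE 0.35) for LGALS2 and -2.74 (SE 0.32) for OMG. They were -2.74 (SE 0.31) for PABPN1L, -2.78 (SE 0.35) for TMEM72 and -2.41 (SE 0.31) for HTR1B. The pseudocount of 0.1 CPM is larger than most of the cytokine values and so understates the fall. The edgeR fit to reads gave -4.62, -3.99, -3.89, -3.83, -3.75 and -3.52 in the same order; as some libraries were at 0, these depend on the prior count of the fit. The median over the 6 genes was -2.74 on the limma scale, beside -0.17 over all listed genes. For 2 genes of the same list with the most control reads, 2118 and 4709, the scales differed less: ROBO3, an axon guidance receptor at 10.9 ± 3.05 CPM in controls, had -3.75 by limma and -3.81 by edgeR, and SYNDIG1L, at 23.9 ± 7.86 CPM, had -3.58 and -3.49. The other genes of the list lay between, MYBPC2 with 379 control reads at -3.36 and -3.90 and SLC6A18 with 327 at -3.25 and -4.20.

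By edgeR, the 6 genes were 1st, 3rd, 5th, 6th, 8th and 9th in the order of falls among coding genes (CCDC177, LGALS2, OMG, PABPN1L, TMEM72 and HTR1B). By limma on log2(CPM + 0.1) the same genes were at rank 30, 21, 23, 22, 20 and 39. HTR1B stood just inside the study's list, followed by SYNDIG1L, and the next coding gene by edgeR, outside the list, was CHRNB4, a nicotinic receptor subunit, at -3.33.

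**Figure D3:**
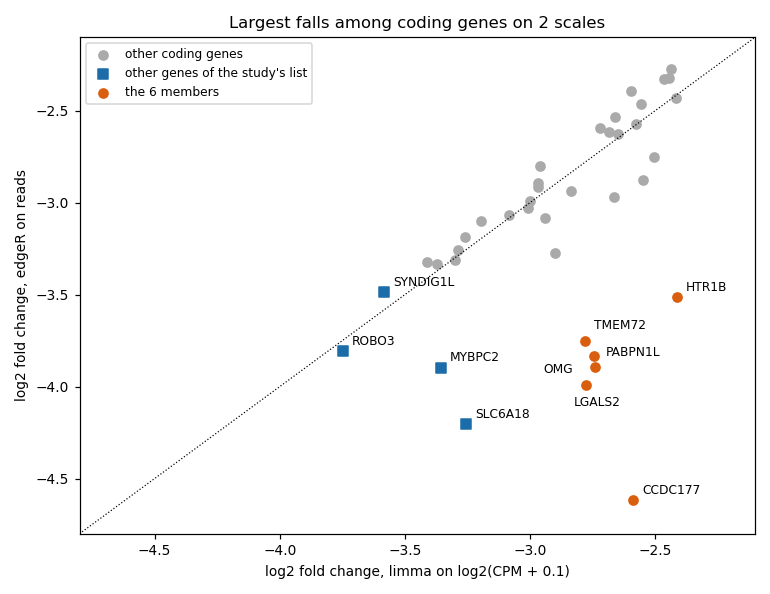
Log2 fold change by limma on log2(CPM + 0.1) (horizontal) against that by edgeR on reads (vertical) for the 39 coding genes that fell at least as much as HTR1B by limma, with a dotted line of equality. The 6 genes (circles with names) lie far below the line, whereas ROBO3 and SYNDIG1L (squares) lie near it and MYBPC2 and SLC6A18 (squares) between.

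The next comparisons did not use the contrast that chose the genes. The column names carry a series mark that pairs A and B share and that differs from the mark shared by C and D, and what it stands for is not given in the sources used here. Between the 2 series within controls, limma called 0 of the 6 genes, while 18.4% of all listed genes were called. Differences ran from -0.42 (LGALS2, SE 0.53) to 0.48 (PABPN1L, SE 0.44) on the log2 scale, adjusted p from 0.463 to 0.992. None of the 6 had an unadjusted p under 0.05, edgeR called 0, and DESeq2 called 0 of the 4 for which it gave an adjusted p. The 6 genes were listed because all 4 controls passed 0.5 CPM, which limits how far their controls can differ, so nothing is read from 0 of 6 beside that share. With 2 libraries in each cell of the fit, differences of this size could not be resolved.

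The fall itself was then compared between the series, as the interaction of treatment and series. Limma called 0 of the 6 genes (adjusted p of 0.999 or above), 0 had an unadjusted p under 0.05, and edgeR called 0. DESeq2 gave an adjusted p for 0 of the 6, and its smallest unadjusted p was 0.156. Among all listed genes 0.0303% were called. The largest interaction was that of PABPN1L, whose log2 fold change was lower in pairs C and D than in A and B (-0.99, SE 0.62). That of HTR1B was 0.01 (SE 0.70). With 0 to 6 reads in every cytokine library, the interaction could resolve little beyond differences between the controls.

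HTR1B, LGALS2, OMG and PABPN1L have known relatives or partners in the table. Lists of these were tested with limma over all listed genes without the 6 members, and calls needed a log2 fold change beyond 0.5 in either direction together with an adjusted p below 0.05. Of 71 such relatives, 21 were called, 5 higher and 16 lower, which is near the share among all listed genes, where 27.0% were called, 9.52% higher and 17.5% lower.

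HTR1B was 1 of 3 serotonin receptors in the table. The other receptors, HTR1D and HTR7, were not called, though HTR7 was with the pair as a block (0.51, limma adjusted p = 0.0400). HTR1D, like HTR1B a Gi-coupled receptor, was at 6.19 ± 0.975 CPM in controls and 4.85 ± 1.78 CPM with cytokines (SD, n = 4 each). Of 7 listed genes of serotonin synthesis, transport and breakdown, 5 fell and 0 rose, beside 17.5% called lower over all listed genes. DDC, which makes serotonin from 5-hydroxytryptophan, fell from 30.7 ± 1.74 to 11.8 ± 2.32 CPM (log2 fold change -1.39, SE 0.15, limma adjusted p = 6.93e-05). TPH1, which with TPH2 sets the first step of synthesis, fell from 8.40 ± 2.45 to 3.74 ± 1.53 CPM (-1.21, SE 0.33, limma adjusted p = 0.0174). TPH2 had -0.81, and the oxidases MAOA and MAOB, which degrade serotonin, had -0.72 and -0.85. The transporters SLC6A4 and SLC18A2 were not called, at -0.14 and 0.08. Calls for TPH1, TPH2 and MAOA were lost on leaving out single libraries, TPH1 without control D (limma adjusted p = 0.0534). TPH2 lost it without control B, C or D and without cytokine A or C (limma adjusted p 0.0510 to 0.0815). MAOA lost it without control A or B and without cytokine D (limma adjusted p 0.0526 to 0.0634), and was not called by edgeR (adjusted p = 0.0718). With the pair as a block, limma called TPH1, TPH2 and MAOA (adjusted p 4.01e-05, 0.00255 and 0.00082).

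Among 12 other Gi-coupled receptors, 5 fell and 1 rose, beside the same 17.5% called lower and 9.52% called higher. ADRA2A, the adrenergic receptor that inhibits insulin release, fell from 106 ± 16.1 to 28.7 ± 2.26 CPM (-1.87, SE 0.13, limma adjusted p = 2.06e-06). Somatostatin receptors went in different ways. SSTR3 had -1.61, SSTR5 had -1.18 and SSTR4 went from 1.56 ± 0.275 to 0.179 ± 0.115 CPM (-2.66), while SSTR1 and SSTR2 were not called at -0.20 and 0.42. The histamine receptor HRH3 had -1.02, a call lost without control B (-0.84, limma adjusted p 0.0528). With the pair as a block HRH3 was called (limma adjusted p = 0.00123). The cannabinoid receptor CNR1 rose by 1.16. Of 14 Gi and Go alpha subunits and adenylyl cyclases, which act below such receptors, 1 was called higher and 2 lower, beside 9.52% and 17.5%. ADCY1 rose by 0.69, ADCY3 and ADCY7 had -0.75 and -1.15, and none of the alpha subunits was called.

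Of 6 galectins other than LGALS2, 2 were called higher and 0 lower, beside 9.52% and 17.5% over all listed genes: LGALS1 went from 1.16 ± 0.257 to 3.47 ± 1.58 CPM (1.40, SE 0.32, limma adjusted p = 0.00725), and LGALS8 from 37.6 ± 2.65 to 57.7 ± 2.97 CPM (0.62, SE 0.11, limma adjusted p = 0.00140). LGALSL, at 28.2 to 31.1 CPM in controls and 20.3 to 24.3 CPM with cytokines (-0.49, limma adjusted p = 0.00828), missed the call only by the fold limit. LGALS3, LGALS4 (-0.41) and LGALS9 were not called, and with the pair as a block LGALS3 was called too (0.90, adjusted p = 0.0163).

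For OMG, 10 other genes of the myelin inhibitor and Nogo receptor system were listed. Of these, 1 was called higher and 3 lower, beside 9.52% and 17.5% over all listed genes. The receptor RTN4R (-0.73), its relative RTN4RL1 (-0.70) and the co-receptor LINGO1, from 205 ± 43.8 to 102 ± 24.8 CPM (-1.02, SE 0.20, limma adjusted p = 0.00332), fell. TNFRSF19, another co-receptor, rose by 0.77. The ligand RTN4 was not called at -0.13, and the ligand MAG, at 0.685 ± 0.161 and 0.349 ± 0.150 CPM, was called only with the pair as a block (adjusted p = 0.0207, against 0.0707 without it).

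For PABPN1L, 1 of 4 other poly(A)-binding proteins was called lower, beside 17.5% over all listed genes. It was PABPC1L, from 130 ± 35.3 to 72.0 ± 23.8 CPM (-0.88, SE 0.29, limma adjusted p = 0.0425). edgeR did not make this call (adjusted p = 0.113). It was also lost without control A, B or D or cytokine C or D (limma adjusted p 0.0603 to 0.0984). With the pair as a block, PABPC1L was called by limma (adjusted p = 1.22e-07) and by edgeR (adjusted p = 8.11e-07). PABPN1 itself was at 31.7 ± 6.72 and 28.4 ± 7.28 CPM (-0.17). None of 16 deadenylases and adaptors, which shorten poly(A) tails, was called, beside 27.0% of all listed genes. CNOT1, with the most reads of these, was at 0.14 (SE 0.10).

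**Figure D4:**
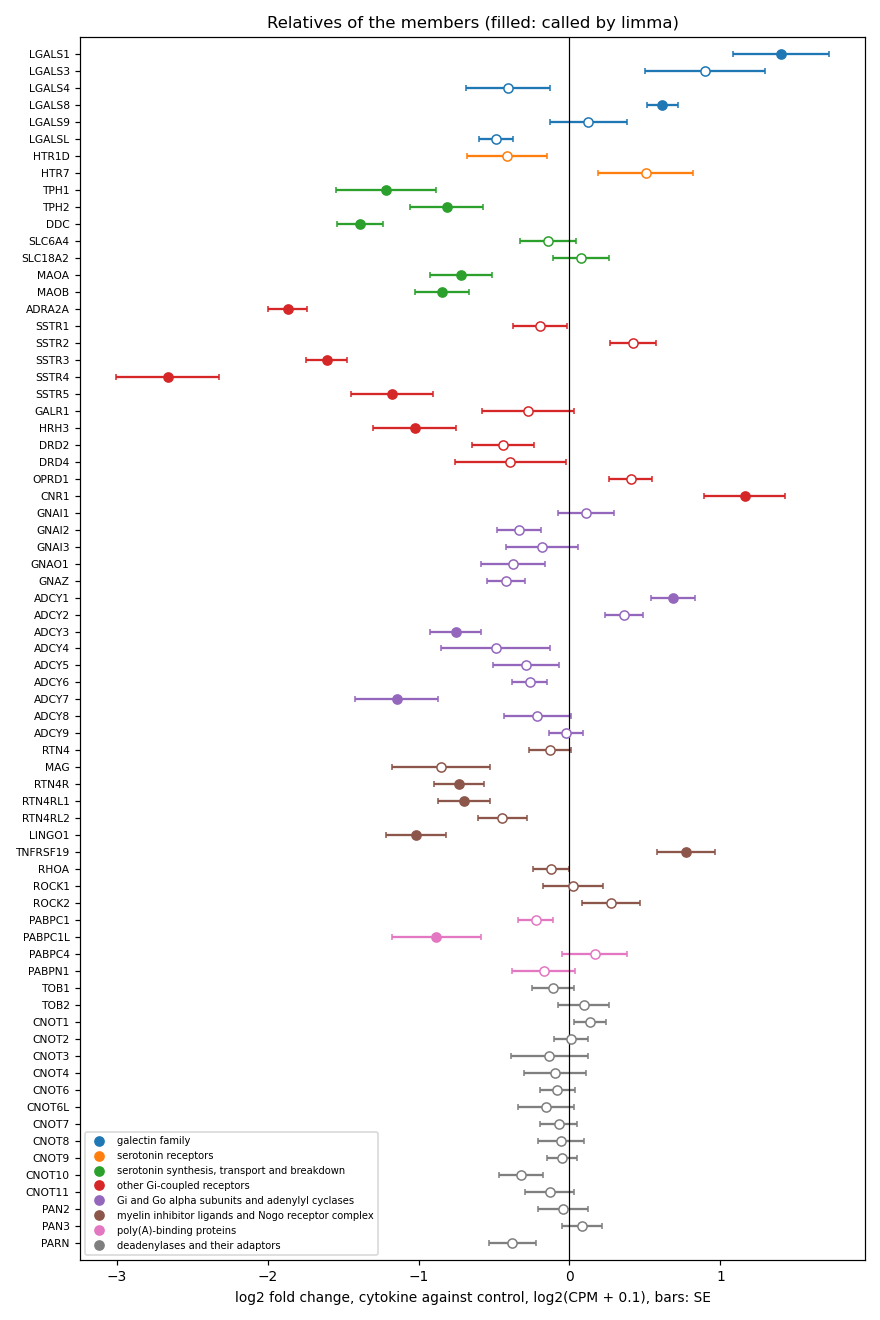
Log2 fold change with SE of 71 relatives or partners of HTR1B, LGALS2, OMG and PABPN1L, on the log2(CPM + 0.1) scale. Circles are coloured by list and filled for genes called by limma. The serotonin synthesis and breakdown genes and several Gi-coupled receptors lie to the left of 0, LGALS1 and CNR1 to the right, and the deadenylases near 0.

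The nearest listed genes on either side of each member, and NF1, were 13 neighbours, of which 4 were called, 1 higher and 3 lower, near the 27.0% called over all listed genes. SUSD6, 36758 bases from CCDC177, rose from 30.3 ± 1.69 to 67.2 ± 4.85 CPM (1.15, SE 0.11, limma adjusted p = 2.05e-05). CBFA2T3 beside PABPN1L had -0.56, RASSF4 beside TMEM72 -0.68 and IRAK1BP1, 1403698 bases from HTR1B, -0.97. None of the falls of the neighbours reached that of the member beside it. The members were chosen for the largest falls in these libraries, so nothing is read from that comparison. CBFA2T3 and RASSF4 were not called by edgeR, and CBFA2T3 was under the fold limit without control B (-0.50) or cytokine D (-0.50). With the pair as a block, limma called CBFA2T3 and RASSF4 (adjusted p 3.92e-05 and 1.37e-05). edgeR with that block called RASSF4 (-0.52) and not CBFA2T3 (-0.41). The other neighbours, PLEKHD1 (-0.50), GGA1 (-0.20), MIR4733HG (-0.46), RAB11FIP4 (-0.42), CXCL12 (-0.14) and MYO6 (-0.13), were not called.

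OMG lies within an intron of NF1 on the opposite strand and shares 0 exon bases with it. NF1, the neurofibromin gene, was at 59.9 ± 5.92 CPM in controls and 66.9 ± 10.9 CPM with cytokines (0.15, SE 0.14, limma adjusted p = 0.445). The library kit marked strand, and reads were counted with default settings of the counter, which use strand. Whether the orientation of the kit matches these settings was not tested. TMEM72 overlaps the antisense gene TMEM72-AS1, which is not listed. The gene nearest to a member was TRAPPC2L, 646 bases from PABPN1L, at -0.25 and not called. CDC42EP1, 840 bases from LGALS2, was at 0.296 ± 0.137 and 0.617 ± 0.179 CPM (0.90, limma adjusted p = 0.0782), and was called with the pair as a block (adjusted p = 0.0196).

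**Figure D5:**
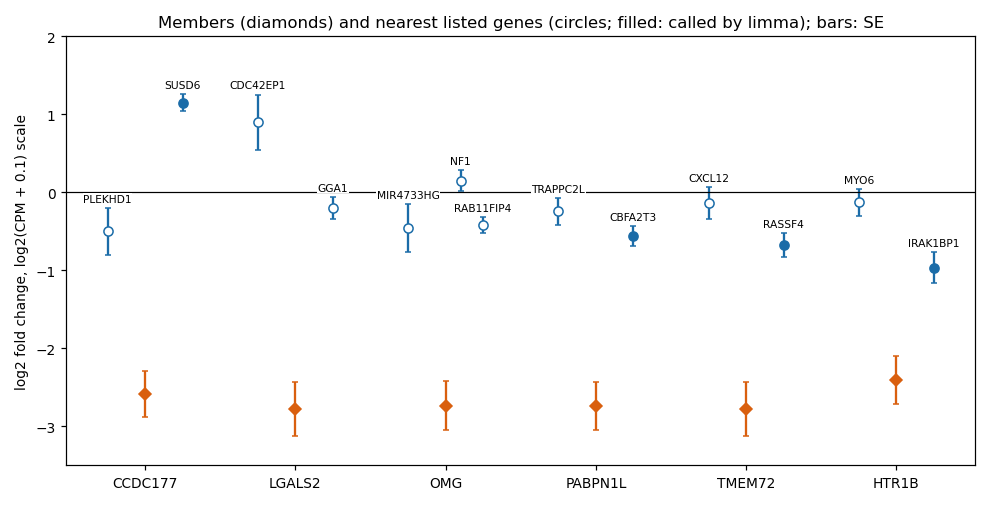
Log2 fold change with SE, on the log2(CPM + 0.1) scale, of each of the 6 genes (diamonds) and of its nearest listed or overlapping genes (circles, filled where called by limma). The diamonds lie at -2.41 or below and every circle above -1, but the diamonds were chosen for their falls in these libraries.

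Other genes most like each member were found by the root mean square distance in log2(CPM + 0.1) over the 8 libraries, each gene centred on its own mean. They are a description, since all share the fall. The nearest to CCDC177 was ENSG00000260573, a long non-coding RNA, at 0.191 log2 units. BOC, a cell surface receptor, was nearest to LGALS2 at 0.361, followed by OMG at 0.371. Both members had their highest control level in library B. ENSG00000279841 was nearest to OMG (0.244), TIMP3, a metalloproteinase inhibitor, to PABPN1L (0.296), NCAM1-AS1 to TMEM72 (0.213) and CCKBR, the gastrin and cholecystokinin receptor, to HTR1B (0.227). The next in order were KIAA1614, TMEM26, CCDC3, PITX1-AS1 and ENTPD3. The pseudocount shrinks the falls of the members, so nearness on this scale does not mean an equal fold in CPM. CCDC177 went from 0.624 to 0.0204 CPM and ENSG00000260573 from 0.587 to 0.0154, but KIAA1614 from 25.5 to 4.79. PABPN1L went from 0.950 to 0.0577 CPM, and TIMP3 from 64.1 to 11.9.

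Promoter windows of 250 bases before the RefSeq start (GRCh38.p14) were matched for 5 of the 6 genes. They are shown because these promoters belong to genes that moved together, and only stretches outside annotated exons, or at most 29 bases around a match, are printed. For OMG and HTR1B all 250 bases of the window lie in annotated exons of the gene, since the annotation used for gene positions starts these genes further upstream, and their matches are thus in exon sequence. For TMEM72 137 and for LGALS2 58 of the bases do, and the LGALS2 window lies within the annotated span of the gene. Capitals mark a match to a searched motif, read on the strand of the gene.
LGALS2, chr22:37580088-37580223, minus strand: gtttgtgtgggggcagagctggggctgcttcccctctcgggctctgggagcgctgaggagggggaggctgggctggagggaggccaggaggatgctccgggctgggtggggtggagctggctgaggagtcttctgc
PABPN1L, chr16:88866661-88866910, minus strand: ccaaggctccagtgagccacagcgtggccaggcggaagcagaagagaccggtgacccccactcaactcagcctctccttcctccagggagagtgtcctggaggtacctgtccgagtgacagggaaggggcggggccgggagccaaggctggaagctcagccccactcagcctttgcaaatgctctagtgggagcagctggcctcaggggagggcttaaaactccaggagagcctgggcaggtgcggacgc
TMEM72, chr10:44911087-44911199, plus strand: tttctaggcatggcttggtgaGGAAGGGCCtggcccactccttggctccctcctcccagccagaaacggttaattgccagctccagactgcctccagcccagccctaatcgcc
HTR1B, chr6:77463627-77463655, minus strand: ggtgtggagaGGAACAACCacagacgcgg
OMG, chr17:31297335-31297363, minus strand: cataaatttgaGTCAGCAccagcgacagc

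The search covered both strands. The κB core GGNNNTTCC matched in TMEM72 (229 to 221 bases before the start) and in HTR1B (154 to 146), and in 17.1% of the 35114 windows searched. The MAF core TGCTGAC matched in OMG, starting 113 bases before the start, and in 3.43% of all windows. The GAS motif TTCNNNGAA (6.57% of all windows), the ISRE core GAAANNGAA (6.88%), the REST site parts TTCAGCACC (0.288%) and GGACAGCG (1.26%), the X-box part GTTGCCA (3.49%) and the TATA box TATAAA (10.7%) matched in none of the 5. A match describes letters and not a site. Only exact letters were searched, so sequences that differ from a motif by a letter were not counted. The printed OMG stretch holds GTCAGCACC, which differs from the REST part TTCAGCACC in its first letter. How often such near matches occur over all windows was not tested. Observed over expected CpG in the 5 windows was between 0.22 and 0.54, all below the median of 0.558 over all windows.

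Markers of cell types in which some of these genes are best known were given beside them, and their part in the result was not tested. The oligodendrocyte markers MBP and OLIG2 were listed, and MOG and SOX10 were not. The summed level of MBP and OLIG2 was 49.1 to 68.7 CPM in controls and 41.3 to 49.0 CPM with cytokines. Of 4 proximal tubule markers only CUBN was listed, at 0.398 to 1.52 CPM in controls and 0.141 to 0.944 CPM with cytokines. All 3 neuron markers were listed, and RBFOX3 went from 1.51 to 3.96 CPM in controls to 0.382 to 0.511 CPM with cytokines, while their sum was 71.9 to 79.0 and 80.3 to 104 CPM.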

How the data were processed

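The deposited table gave CPM, which the authors had made from reads filtered with SOAPnuke, aligned to GRCh38 with TopHat2 2.1.1 and counted with HTSeq 0.9.1 on Ensembl 107, keeping genes at 0.5 CPM in at least 4 samples. The library kit was strand-specific. In all 8 columns used, 100% of values were whole reads, which were recovered for count tests. 4 value columns of the table were not used. The main fit was limma 3.58.1 with an intensity trend on log2(CPM + 0.1), with Benjamini-Hochberg adjustment over 16525 genes and calls at a log2 fold change beyond 0.5 in either direction and adjusted p below 0.05. edgeR 4.0.16 (quasi-likelihood) and DESeq2 1.42.0 on reads, TMM and median-of-ratios scaling, pseudocounts of 0.5 and 1, a filter at a mean of 1 CPM, no trend, the pair as a block and leaving out each library were alternatives (R 4.3.3; Python 3.11.15, scipy 1.17.1). Scripts were tested on simulated data. Gene positions came from GENCODE 29, which placed 16167 of the genes, and promoters from RefSeq.

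The 6 genes and the lists of relatives were chosen with earlier results of these data known. Named genes were the 6, every called gene of a list (with none called, the highest), the nearest listed neighbours, overlapping genes, and the 3 genes nearest in profile to each member; others named beside these (uncalled relatives, CHRNB4, RBFOX3) were chosen after their values were seen. Group columns were matched by their names. Pairs came from a shared first part of the column name; deviations of paired libraries from their group means correlated at 0.46, 0.50, 0.75 and 0.68 (A to D). Control B with cytokine A (0.49) and control A with cytokine B (0.45) correlated as well, so these data do not tell pairs A and B apart.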

Additional observations from a re-analysis of the deposited data

Results flagged for a closer look

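Of 12 groups of 4 libraries tested (6 genes, control and cytokine), 1 held a library far from the others. LGALS2 was at 1.50 CPM in control B, where its gap to the next control was 0.963 of the range of the group, above Dixon's 95% critical value for 4 samples. Chance alone gives about 1 such group in 20. Without control B the log2 fold change of LGALS2 on the log2(CPM + 0.1) scale was -2.55, against -2.78 with it, and it was -2.94 to -2.55 when each library in turn was left out.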

How the results depend on the processing

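The direction of the fall of the 6 genes was the same under every alternative run, but its size depended on the scale. The median log2 fold change of -2.74 went to -1.37 with a pseudocount of 0.5 CPM, to -0.87 with 1 CPM, to -3.86 by edgeR and to -3.91 by DESeq2. Leaving out each library in turn gave -2.77 to -2.58, the last without control B. Such fits called 17 to 22 of 71 relatives, 3 to 4 of 13 neighbours, and 0 of the 6 genes for series and for the interaction. edgeR called 2 neighbours against 4. With the pair as a replicate block, 24 relatives and 5 neighbours were called against 21 and 4, the median of the 6 genes was still -2.74, and the added relatives were LGALS3, HTR7 and MAG; edgeR with the pair as a block, chosen after seeing the data, gave -3.86 and called 26 and 4. The block raised the calls over all genes from 4470 to 5852. With a mean of at least 1 CPM, none of the 6 genes was left, so this filter gave no value for them, and DESeq2 gave none for the interaction. TMM scaling moved the median of all genes from -0.17 to -0.02, and the calls from 1574 higher and 2896 lower to 2154 and 1933; MAOA, PABPC1L and CBFA2T3 were then not called, and SSTR2, OPRD1 and ADCY2 were called higher. At 0 to 6 reads a library, the depth of the cytokine libraries set no order among the 6 genes.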
